A study of Homo sapiens with 6 samples.

Results

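The 42 genes described here encode the chaperones, folding enzymes, quality-control factors and stress sensors of the endoplasmic reticulum (ER). They were chosen as the rows of the gene table whose symbol was on a list of ER stress sensors, chaperones, disulfide enzymes and ER-associated degradation genes, and all 42 were found among the 58735 genes of the table. The cells were AsPC-1, a human line that was established from pancreatic cancer, and 6 RNA-seq libraries were made. The labels give 3 of them (Vector, n = 3) as wild type treated with an empty virus and the other 3 (OE-MMP28, n = 3) as MMP28 overexpression after an MMP28 lentivirus. MMP28 is a secreted matrix metalloproteinase. Per the study's methods the lentiviral vector carried a GFP and puromycin cassette. The infected cells of both groups were selected with puromycin for stable expression and collected in triplicate. Whether they were kept as pools or clones is not stated. The study's methods say in general that cell experiments were repeated independently, but no source says so of these libraries, so the p-values measure only the spread among these libraries, which may be technical. The question that this comparison puts to the ER genes is whether their RNA levels differed between the groups of libraries.

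The ER folds the proteins that a cell secretes or places in its membranes. Hsp70 and Hsp90 type chaperones, lectin chaperones that bind N-glycans and protein disulfide isomerases act there, and chains that fail to fold are passed back to the cytosol for degradation by the proteasome. When unfolded chains build up, the membrane sensors IRE1, PERK and ATF6 start the unfolded protein response: IRE1 splices the XBP1 mRNA, PERK phosphorylates the translation factor eIF2 alpha, and ATF6 is cut in the Golgi to free a transcription factor. Pancreatic epithelium is known for a high secretory load and for reliance on these pathways.

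The libraries held between 13633249 and 16691458 counts, and mitochondrial genes took between 8.80% and 14.8% of them. MMP28 had 5.17, 9.11 and 8.43 FPKM (fragments per kilobase of gene, scaled to the library total) in the Vector libraries, given here and below in the order of their replicate numbers, and 13.1, 13.9 and 15.1 FPKM in the OE-MMP28 libraries. All 3 OE-MMP28 libraries were above all 3 Vector libraries, and the log2 fold change was 0.90 (SE 0.19, adjusted p = 0.00226). Fold changes, standard errors (SE), 95% intervals and adjusted p-values throughout come from 1 edgeR quasi-likelihood fit over 15319 genes with Benjamini-Hochberg adjustment, a gene past the threshold has an adjusted p under 0.05, and a positive log2 fold change means a higher level in OE-MMP28. The 7 epithelial markers all had a mean of at least 1 FPKM. Among markers of other cells, 4 of 7 acinar markers were at 0 in all libraries and none reached a mean of 1 FPKM, LYZ alone of 7 macrophage and leukocyte markers and LUM alone of 7 fibroblast markers did, and none of 5 endothelial markers did. LYZ and LUM were far above that bound, with means of 152 and 41.3 FPKM over all libraries.

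The promoters of the ER genes were also searched, because the transcription factors of the response recognize short DNA elements. Binding to these elements was not measured. RefSeq promoter windows (GRCh38.p14, from 250 bases before to 50 bases after a transcript start) were matched for 37 of the 42 genes by symbol. On both strands they were searched for the ER stress response element ERSE (CCAAT and CCACG with 9 free bases between them), which ATF6 and XBP1 bind together with NF-Y, for its shorter form ERSE-II (ATTGG and CCACG with 1 free base between them), for the XBP1 element UPRE (TGACGTGG) and for the ATF4 element CARE (TTGCATCA). The stretches shown are those around the elements of HSPA5, XBP1, CALR and CRELD2, none of which passed the test described further on, and of HYOU1 and HERPUD1, which moved in opposite directions. Each runs 5′ to 3′ on the strand of its gene, and capitals mark the fixed letters of the element in either orientation.
HSPA5 ERSE (chr9:125241371-125241429, minus strand): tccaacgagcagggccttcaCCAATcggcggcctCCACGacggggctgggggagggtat
XBP1 ERSE (chr22:28800583-28800641, minus strand): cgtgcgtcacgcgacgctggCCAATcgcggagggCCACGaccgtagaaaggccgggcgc
CALR ERSE (chr19:12938364-12938422, plus strand): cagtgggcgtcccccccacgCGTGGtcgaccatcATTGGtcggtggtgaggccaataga
CRELD2 ERSE (chr22:49918534-49918592, plus strand): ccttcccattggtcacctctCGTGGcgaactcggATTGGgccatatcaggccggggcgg
HYOU1 nearer ERSE-II (chr11:119057254-119057304, minus strand): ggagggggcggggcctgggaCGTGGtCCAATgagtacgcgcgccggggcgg
HYOU1 farther ERSE-II (chr11:119057360-119057410, minus strand): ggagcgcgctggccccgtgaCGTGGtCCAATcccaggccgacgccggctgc
HERPUD1 ERSE-II (chr16:56932005-56932055, plus strand): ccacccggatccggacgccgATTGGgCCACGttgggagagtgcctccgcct

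These elements lie before the RefSeq transcript start, 47 bases away for the HSPA5 element, 33 for XBP1, 206 for CALR, 61 for CRELD2, 68 and 174 for HYOU1 and 106 for HERPUD1. In the GENCODE 29 annotation the HSPA5, CALR and HYOU1 stretches have no base inside their gene, the last 15 bases of the XBP1 stretch and 8 bases of the HERPUD1 stretch fall in an annotated first exon, and the CRELD2 stretch is intronic in a longer transcript. ERSE was found in 8 of the 37 genes with a window (CALR, CANX, CRELD2, ERO1B, HSP90B1, HSPA5, PDIA6 and XBP1), against 0.0769% of all 35116 windows and 0 of 70 other genes of the pathway. A gene was counted if any of its windows held the element, so shares of genes and of windows differ in unit here and below. ERSE-II was found in HERPUD1, HYOU1 and SDF2L1, against 0.0541% of windows. UPRE was found in HYOU1, TXNDC11 and TXNDC5 (0.729% of windows), and CARE in HERPUD1 (0.866%), while 9 and 3 of the 70 other pathway genes held them. In HYOU1 the UPRE letters overlapped the farther ERSE-II. A match is a description of the letters in this window, and no match says nothing of the factor.

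The summed level of the ER genes overlapped between the Vector and OE-MMP28 libraries. Together they took 0.631%, 0.563% and 0.561% of the counts in the Vector libraries and 0.638%, 0.624% and 0.568% in the OE-MMP28 libraries. In such bulk RNA, fewer cells that express a gene and less of its RNA per cell cannot be told apart. Of the 42 genes 41 had enough counts to be tested. Of these, 4 were higher in OE-MMP28 (SEC61A1, SEL1L, HYOU1 and SEC61B), 4 were lower (CREB3L2, CREB3L1, ERN2 and HERPUD1) and 33 were not past the threshold. The 8 called genes are 19.5% of those tested, beside 23.4% of all genes tested, and the shares of all genes were 11.7% for higher and 11.6% for lower. The count for the ER genes was therefore near the background of this comparison. Their log2 fold changes had a median of 0.0049, with 21 above 0 and 20 below, and the median of their absolute values was 0.22, beside 0.014 and 0.33 over all genes tested. For 35 of the 41 the 95% interval lay between -1 and 1. The libraries of the 2 groups did not overlap for 13 genes (31.7%, beside 38.1% of all genes tested), 7 of them higher and 6 lower in OE-MMP28, beside 19.5% and 18.6% of all genes. With upper-quartile scaling the split was 3 higher and 5 lower, beside 23.2% of all genes called.

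**Figure D1:**
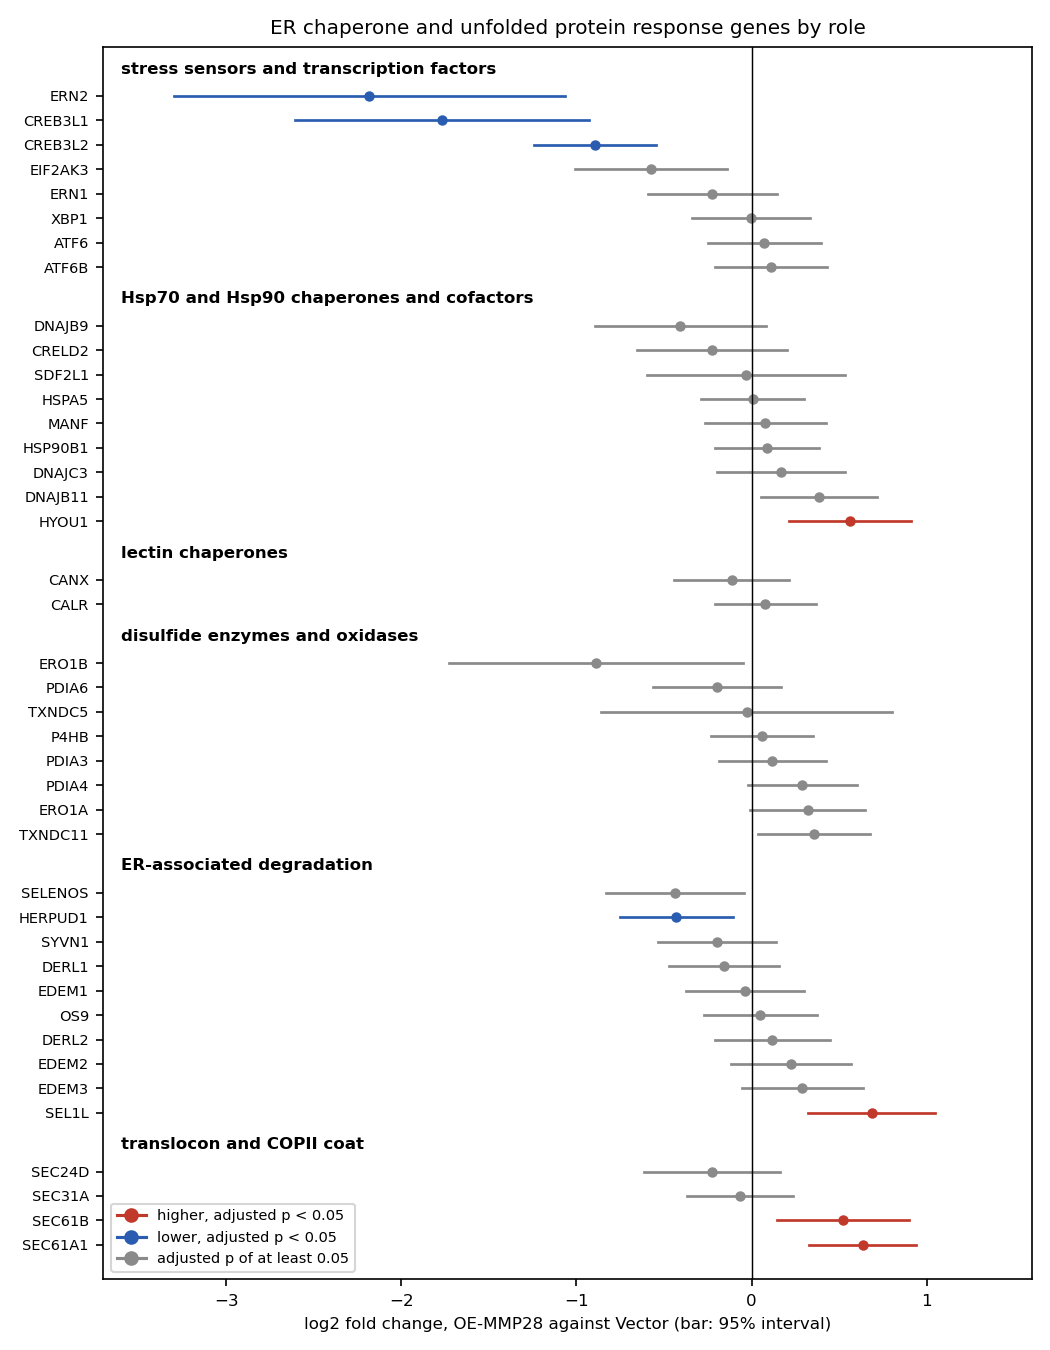
Log2 fold changes of the 41 tested ER genes, OE-MMP28 against Vector, grouped by role on the vertical axis, with 95% intervals from the edgeR fit. Red points are the 4 genes past an adjusted p of 0.05 that were higher, blue points the 4 that were lower, and grey points the other 33. The blue points sit in the sensor and degradation groups and no point of the lectin and disulfide groups is coloured.

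Levels ran from the major chaperones down to cell-type restricted forms. FPKM is scaled to 1 length per gene, whichever transcripts are expressed, and so compares genes only roughly. In FPKM, 4 of the 42 genes had a mean over the 6 libraries of at least 100 (HSP90B1, CALR, CANX and HSPA5), 24 had at least 10 and 38 at least 1. The 4 genes with a mean under 1 FPKM were TXNDC5, ERO1B, ERN2 and DERL3. HSP90B1 was the most abundant, with 196 ± 12.1 FPKM in Vector and 207 ± 28.4 FPKM in OE-MMP28 (SD, n = 3 each). CALR followed with 158 ± 8.28 and 166 ± 6.25 FPKM, and CANX with 154 ± 23.0 and 142 ± 25.0 FPKM, so CALR and CANX, neighbours in the order, did not differ beyond their spread.

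**Figure D2:**
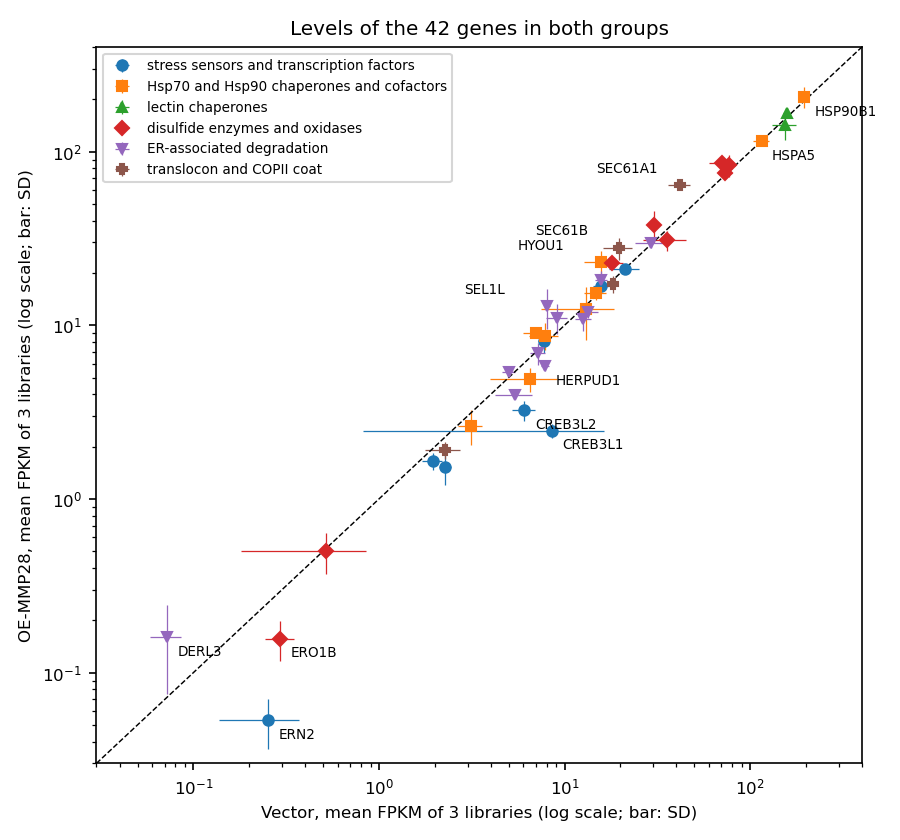
Mean FPKM of the 42 ER genes in Vector (horizontal, log scale) and OE-MMP28 (vertical, log scale), with SD bars over 3 libraries, symbols by role and a dashed line of equal levels. The abundant chaperones HSP90B1 and HSPA5 lie on the line, SEC61A1, SEC61B, HYOU1 and SEL1L above it, and CREB3L2, CREB3L1 and ERN2 below it.

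Among the 8 stress sensors and transcription factors, 3 fell, none rose and 5 were not past the threshold, with a median log2 fold change of -0.40. The called genes are 37.5% of this list, beside 23.4% of all genes tested (11.6% lower and 11.7% higher). With only 8 genes, this difference in shares was not tested. All 3 that fell are relatives of the canonical sensors rather than the sensors themselves. CREB3L2 (ENSG00000182158, chr7:137874979-138002067, minus strand) encodes a membrane-bound transcription factor of the ATF6 type, also called BBF2H7, that is freed by cleavage in the Golgi and is known for raising the transport capacity of secretory cells. It had 6.91, 6.08 and 5.22 FPKM in Vector and 3.61, 3.33 and 2.78 FPKM in OE-MMP28. Every OE-MMP28 library was below every Vector library, and the log2 fold change was -0.90 (SE 0.17, 95% interval -1.24 to -0.55, adjusted p = 0.000731). The call held in 18 of 19 alternative settings, with adjusted p-values between 5.43e-06 and 0.0544.

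CREB3L1 (ENSG00000157613, chr11:46277661-46321422, plus strand), or OASIS, is the closest relative of CREB3L2 and is known for its part in collagen-secreting and goblet cells. It had 2.54, 17.2 and 5.82 FPKM in the Vector libraries and 2.21, 2.63 and 2.59 FPKM in the OE-MMP28 libraries. The OE-MMP28 libraries were close together, Vector replicate 2 stood far above the rest, and the groups overlapped because Vector replicate 1 was at the OE-MMP28 level. The log2 fold change was -1.77 (SE 0.40, adjusted p = 0.00358). It was -0.74 without Vector replicate 2, and the call was not made by DESeq2 or by 3 limma fits on FPKM, with adjusted p-values between 1.09e-16 and 0.360 over 19 alternatives.

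ERN2 (ENSG00000134398, chr16:23690326-23713500, minus strand) encodes IRE1 beta, the form of IRE1 restricted to mucosal epithelium. Its counts were 13, 26 and 15 in the Vector libraries and 4, 3 and 6 in the OE-MMP28 libraries, or 0.253 ± 0.116 and 0.0533 ± 0.0169 FPKM (SD, n = 3 each). The groups did not overlap, but the OE-MMP28 counts were close to 3 counts per library, the limit that a count of 0 allows. The log2 fold change was -2.18 (SE 0.54, 95% interval -3.30 to -1.07, adjusted p = 0.00582), and the call was lost in 2 of 18 alternatives, both with limma on log2(FPKM + 1).

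The canonical sensors showed smaller differences. EIF2AK3 (ENSG00000172071, chr2:88556741-88627576, minus strand), which encodes PERK, had 2.25, 2.12 and 2.46 FPKM in Vector and 1.49, 1.86 and 1.21 FPKM in OE-MMP28. The groups did not overlap, and the log2 fold change of -0.57 (SE 0.21, 95% interval -1.01 to -0.14) missed the threshold with an adjusted p of 0.0520. It passed in 9 of 19 alternatives, over which adjusted p ran from 0.0350 to 0.634. ERN1 (ENSG00000178607, chr17:64039142-64130819, minus strand), which encodes IRE1 alpha, had 2.23, 1.78 and 1.83 FPKM in Vector and 1.84, 1.46 and 1.66 FPKM in OE-MMP28, with overlapping groups and a log2 fold change of -0.22 (SE 0.18, adjusted p = 0.386). ATF6 (ENSG00000118217, chr1:161766294-161964070, plus strand) had 8.26, 7.31 and 7.60 FPKM against 9.28, 7.95 and 6.97 FPKM. These values also overlapped, and the log2 fold change was 0.07 (SE 0.15, 95% interval -0.25 to 0.39, adjusted p = 0.782). Its paralog ATF6B had a log2 fold change of 0.11.

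XBP1 (ENSG00000100219, chr22:28794555-28800597, minus strand), the factor that IRE1 activates by splicing, had 22.0, 24.9 and 17.0 FPKM in Vector and 20.1, 22.0 and 21.0 FPKM in OE-MMP28. The OE-MMP28 libraries fell inside the range of the Vector libraries. The log2 fold change was -0.0040 (SE 0.16, 95% interval -0.34 to 0.33, adjusted p = 0.990). A count per gene adds the spliced and unspliced forms of the mRNA, so IRE1 activity was not measured here.

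**Figure D3:**
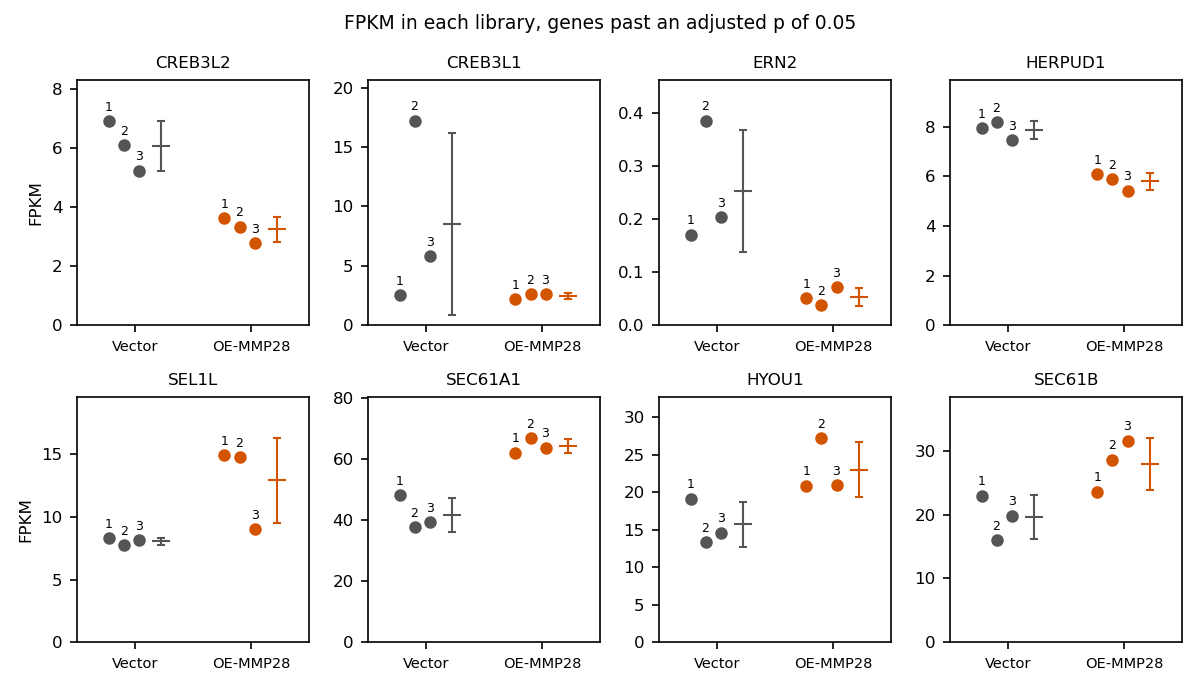
FPKM of the 8 ER genes past an adjusted p of 0.05 in each library, with the replicate number above each point and the mean and SD (n = 3) to the right of the points. The groups separate in 7 of the 8 panels, and in the CREB3L1 panel Vector replicate 1 lies at the level of the OE-MMP28 libraries while Vector replicate 2 is at 17.2 FPKM.

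Of the 9 Hsp70 and Hsp90 chaperones and cofactors, 1 rose, none fell and 8 were not past the threshold, with a median log2 fold change of 0.08. The called share was 11.1%, beside 23.4% of all genes tested. Neither of the chaperones most used as readouts of the response passed. HSPA5 (ENSG00000044574, chr9:125234853-125241330, minus strand) encodes BiP, the ER Hsp70 that also holds the sensors inactive. It had 118, 125 and 103 FPKM in Vector and 122, 111 and 111 FPKM in OE-MMP28, so its OE-MMP28 libraries lay within the Vector range. The log2 fold change was 0.0049 (SE 0.14, 95% interval -0.29 to 0.30, adjusted p = 0.985). HSP90B1 (ENSG00000166598, chr12:103930107-103953645, plus strand) encodes GRP94, the ER Hsp90, and had 196, 208 and 184 FPKM against 239, 196 and 185 FPKM. OE-MMP28 replicate 1 was the highest of the 6, the groups overlapped, and the log2 fold change was 0.09 (SE 0.14, 95% interval -0.21 to 0.38, adjusted p = 0.708).

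HYOU1 (ENSG00000149428, chr11:119044189-119057202, minus strand) encodes GRP170, a large Hsp70 relative that exchanges nucleotide on BiP, and it was the gene of this group that rose. It had 19.2, 13.4 and 14.6 FPKM in Vector and 20.9, 27.2 and 20.9 FPKM in OE-MMP28. The groups did not overlap, although Vector replicate 1 was within 2 FPKM of the nearest OE-MMP28 libraries. The log2 fold change was 0.56 (SE 0.17, 95% interval 0.21 to 0.91, adjusted p = 0.0189). The call was lost without Vector replicate 2, Vector replicate 3 or OE-MMP28 replicate 2, and in 6 of 19 alternatives in all, with adjusted p-values between 0.00404 and 0.749.

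The J-domain cofactors of BiP did not move as 1 group. DNAJB9 (ENSG00000128590, chr7:108569568-108574850, plus strand), or ERdj4, which recruits BiP to IRE1, had 9.18, 4.02 and 6.43 FPKM in Vector and 5.75, 4.74 and 4.23 FPKM in OE-MMP28. Vector replicate 2 was the lowest of the 6 libraries and the groups overlapped, with a log2 fold change of -0.41 (SE 0.23, 95% interval -0.90 to 0.08, adjusted p = 0.220). Without Vector replicate 2 the log2 fold change was -0.66 and past the threshold, and over 19 alternatives the adjusted p ran from 0.0227 to 0.773. DNAJB11 (ERdj3), which holds unfolded chains for BiP, had 6.51, 8.20 and 6.31 FPKM against 9.14, 9.31 and 8.78 FPKM, groups that did not overlap, and its log2 fold change of 0.39 had an adjusted p of 0.0848. DNAJB11 passed the threshold without Vector replicate 2. DNAJC3, an inhibitor of PERK, had a log2 fold change of 0.17. The secreted stress proteins MANF and CRELD2 had 0.08 and -0.23. SDF2L1, a partner of DNAJB11, ranged from 9.57 to 19.3 FPKM in Vector and from 7.59 to 15.1 FPKM in OE-MMP28, a wide spread in both groups.

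**Figure D4:**
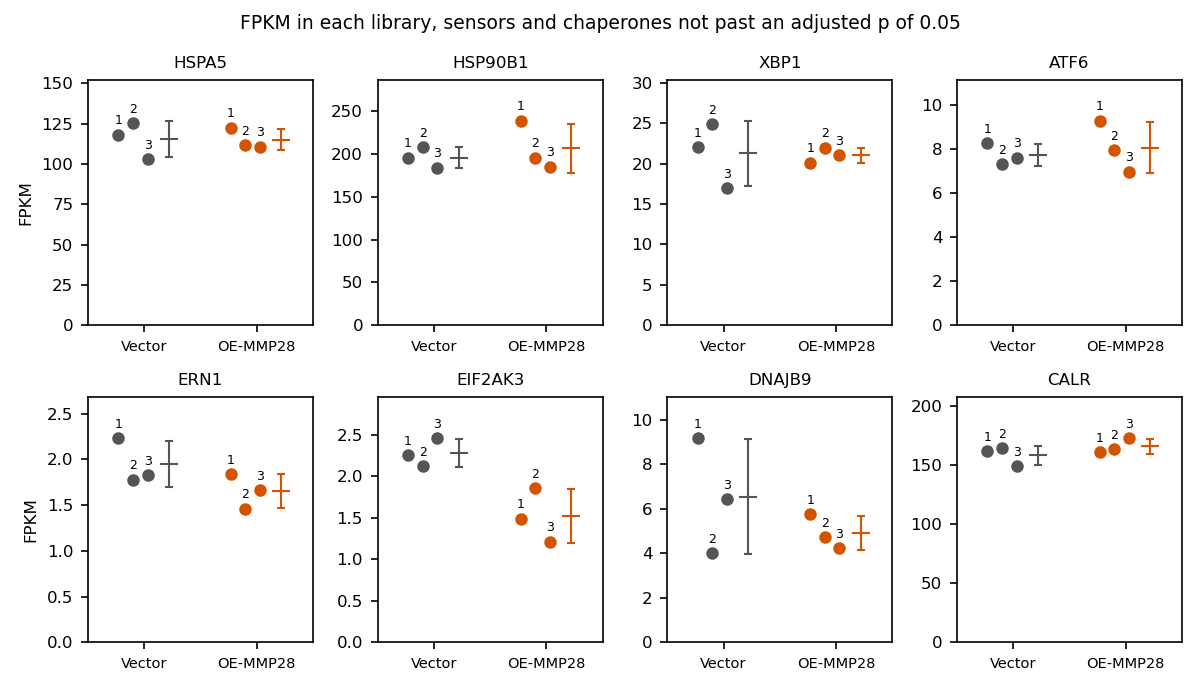
FPKM in each library for 8 sensors and chaperones that were not past an adjusted p of 0.05, with the replicate number above each point and the mean and SD (n = 3) to the right of the points. The groups overlap for HSPA5, HSP90B1, XBP1, ATF6, ERN1, DNAJB9 and CALR, while for EIF2AK3 the OE-MMP28 libraries sit at 1.86 FPKM or lower and the Vector libraries at 2.12 FPKM or higher.

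The lectin chaperones and the disulfide enzymes gave no gene past the threshold, 0 of 2 and 0 of 8 with edgeR, and 0 with DESeq2 and limma voom as well. With edgeR 23.4% of all genes tested were past it. When 1 library was left out, TXNDC11 passed without Vector replicate 2 and ERO1A without OE-MMP28 replicate 3. Of all genes tested, 19.2% and 17.5% were then called. At an unadjusted p under 0.05 there were 0 and 2, beside 35.8% of all genes tested. Calreticulin (CALR) and calnexin (CANX), which retain glycoproteins until they are folded, had log2 fold changes of 0.08 (95% interval -0.21 to 0.37) and -0.11 (95% interval -0.44 to 0.22). Of the protein disulfide isomerases, PDIA3, P4HB and PDIA6 had 0.12, 0.06 and -0.20. PDIA4 had 81.0, 59.1 and 72.5 FPKM in Vector and 88.7, 85.9 and 83.3 FPKM in OE-MMP28, which did not overlap, and a log2 fold change of 0.29 (adjusted p = 0.169). TXNDC11, a thioredoxin domain protein, also had groups that did not overlap, with 0.36 (adjusted p = 0.0992). ERO1A, the main oxidase that recharges the isomerases, had 30.3 ± 2.16 and 37.6 ± 7.70 FPKM (SD, n = 3 each) and a log2 fold change of 0.32 (adjusted p = 0.152), and its low-level paralog ERO1B had -0.89 with a wide 95% interval of -1.73 to -0.05 (adjusted p = 0.118). TXNDC5 shares 60.6% of its exon length with the readthrough gene BLOC1S5-TXNDC5 on the same strand, so its levels of 0.515 ± 0.334 and 0.502 ± 0.131 FPKM (SD, n = 3 each) are uncertain. PDIA3 has the processed pseudogene PDIA3P1, which held between 202 and 301 counts. Because the strand setting of the counting is not stated, reads of genes on the opposite strand may also be included. Among others, these overlap 25.2% of the exon length of PDIA6, 14.8% of PDIA3, 14.4% of EIF2AK3 and 13.5% of OS9. For HYOU1 the overlap is 8.66% and for SEC61A1 7.32%. On the same strand, FAU overlaps 7.24% of the exon length of SYVN1.

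Of the 11 genes of ER-associated degradation 10 were tested, 1 rose, 1 fell and 8 were not past the threshold, with a median log2 fold change of 0.0045. The called share was 20%, beside 23.4% of all genes tested. The ligase complex at the center of this pathway consists of the ubiquitin ligase SYVN1 (HRD1) and its adaptor SEL1L. SEL1L (ENSG00000071537, chr14:81471549-81533861, minus strand) had 8.29, 7.76 and 8.14 FPKM in Vector and 14.9, 14.8 and 9.01 FPKM in OE-MMP28. The Vector libraries were close together, OE-MMP28 replicates 1 and 2 were well above them and replicate 3 was only slightly above. The log2 fold change was 0.69 (SE 0.17, 95% interval 0.32 to 1.05, adjusted p = 0.00723). Over 19 alternatives the adjusted p ran from 0.000848 to 0.916, with the call lost in 4, among them that without OE-MMP28 replicate 2. SYVN1 had 12.6 ± 1.19 and 10.9 ± 1.67 FPKM (SD, n = 3 each), with overlapping groups and a log2 fold change of -0.20 (adjusted p = 0.405).

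HERPUD1 (ENSG00000051108, chr16:56932048-56944863, plus strand) encodes a membrane protein that joins the SYVN1 complex and is a common target of the response. It had 7.94, 8.20 and 7.46 FPKM in Vector and 6.08, 5.89 and 5.42 FPKM in OE-MMP28. Both groups were tight and did not overlap, and the log2 fold change was -0.43 (SE 0.16, 95% interval -0.75 to -0.11). The adjusted p of 0.0498 was at the threshold, and the call was lost in 11 of 19 alternatives, 5 of which left out 1 library, with adjusted p-values from 0.0213 to 0.637. SELENOS, which links the complex to the ATPase p97, had 6.81, 5.11 and 4.40 FPKM against 4.11, 3.87 and 3.98 FPKM, groups that did not overlap, and a log2 fold change of -0.44 (adjusted p = 0.0999). The mannosidase-like proteins EDEM1, EDEM2 and EDEM3, which trim glycans of failed chains, had -0.04, 0.22 and 0.29, and the lectin OS9, which reads them, had 0.05. The derlins DERL1 and DERL2, membrane proteins of the export channel, had -0.16 and 0.12. DERL3 had counts of 5, 3 and 4 in Vector and 13, 12 and 4 in OE-MMP28 and was not tested, and SMARCB1 on the opposite strand covers 77.0% of its exon length.

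Of the 4 translocon and coat genes, 2 rose, none fell and 2 were not past the threshold. Beside these few genes, 11.7% of all genes tested were higher and 11.6% were lower. SEC61A1 (ENSG00000058262, chr3:128051641-128071683, plus strand) encodes the pore of the channel through which nascent chains enter the ER. It had 48.0, 37.7 and 39.3 FPKM in Vector and 62.0, 66.7 and 63.7 FPKM in OE-MMP28. All OE-MMP28 libraries were well above all Vector libraries, and the log2 fold change was 0.63 (SE 0.15, 95% interval 0.33 to 0.94, adjusted p = 0.00389). Over 19 alternatives the adjusted p ran from 0.000404 to 0.765, with the call lost in 2.

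SEC61B (ENSG00000106803, chr9:99222064-99230615, plus strand), a small subunit of the same channel, had 22.9, 16.0 and 19.8 FPKM in Vector and 23.5, 28.6 and 31.6 FPKM in OE-MMP28. Vector replicate 1 and OE-MMP28 replicate 1 were almost level, and the log2 fold change was 0.52 (SE 0.18, 95% interval 0.15 to 0.90, adjusted p = 0.0409). The call was lost in 11 of 19 alternatives, among them those without Vector replicate 2, Vector replicate 3, OE-MMP28 replicate 2 or OE-MMP28 replicate 3, with adjusted p-values from 0.0197 to 0.184. The COPII coat genes SEC24D and SEC31A, which serve the vesicles that leave the ER, had -0.22 and -0.07.

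The genes that moved were set beside their neighbours in the genome. For each gene the median log2 fold change of the tested genes within 5 Mb on either side was taken. It was 0.55 around SEC61A1, 0.72 around SEL1L, 0.46 around HYOU1 and 0.03 around SEC61B. It was 0.00 around CREB3L2, 0.05 around CREB3L1, 0.32 around ERN2, -0.30 around HERPUD1 and -0.40 around EIF2AK3. So the neighbours of SEC61A1, SEL1L and HYOU1 were higher by about as much as these genes, while the medians around CREB3L2 and CREB3L1 were near 0 and that around ERN2 was above 0. With these local medians as an offset in the fit, 0 ER genes were higher and 3 were lower (CREB3L2, CREB3L1 and ERN2), or 7.32% of those tested, beside 15.4% of all genes. Under that offset the log2 fold change was 0.08 for SEC61A1, -0.04 for SEL1L, 0.10 for HYOU1, 0.49 for SEC61B and -0.13 for HERPUD1.

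The promoter elements were then set beside the fold changes. None of the 8 genes with an ERSE was past the threshold with edgeR, DESeq2 or limma voom, and 1 (ERO1B) had an unadjusted p under 0.05, beside 35.8% of all genes. Their log2 fold changes ran from -0.89 to 0.09 with a median of -0.06, and their lowest adjusted p was 0.118. Of the 3 genes with an ERSE-II, HYOU1 was higher, HERPUD1 was lower and SDF2L1 was not past the threshold with -0.03. The calls of HYOU1 and HERPUD1 were lost in 6 and 11 of 19 alternatives, the local-median offset among them. Among the 26 genes with a window and neither element, 3 were higher and 2 were lower, with a median of 0.08. Of all genes tested, 11.7% were higher and 11.6% were lower.

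Other genes of the pathway were taken from lists of the PERK and ATF4 arm, sensor processing, further folding enzymes, degradation, translocon and COPII coat. Of 83 such genes 79 were tested, 10 were higher and 10 were lower, which is 25.3% beside 23.4% of all genes. In the PERK and ATF4 arm 1 of 13 tested genes rose and 3 fell, with a median log2 fold change of -0.26. Beside these, 11.7% of all genes tested were higher and 11.6% were lower. The other 9 genes of this arm were not past the threshold. Of the 13 log2 fold changes 9 were below 0 and 4 above. TRIB3, a pseudokinase induced by ATF4 and CHOP that restrains ATF4, had 9.28, 8.38 and 9.62 FPKM in Vector and 5.56, 5.93 and 5.63 FPKM in OE-MMP28. These groups were tight and apart, and the log2 fold change was -0.66 (SE 0.16, adjusted p = 0.00606), past the threshold in all 19 alternatives (adjusted p between 0.000545 and 0.0409).

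CHAC1, a glutathione-degrading enzyme downstream of ATF4, had 1.84, 4.21 and 2.11 FPKM against 0.584, 0.950 and 0.809 FPKM, a log2 fold change of -1.78 (adjusted p = 0.00104). DDIT4, an inhibitor of mTORC1 that ATF4 induces, had 6.55, 8.23 and 6.30 FPKM against 2.09, 4.54 and 3.41 FPKM, or -1.05 (adjusted p = 0.00408). In both genes every OE-MMP28 library was below every Vector library. The tested genes within 5 Mb of DDIT4 had a median log2 fold change of -0.44. With the local-median offset DDIT4 had -0.62 (adjusted p = 0.0945) and was not past the threshold, while CHAC1 had -1.72 (adjusted p = 0.00197). The transcription factors of this arm themselves did not pass: ATF4 had -0.20 (95% interval -0.51 to 0.10, adjusted p = 0.338), DDIT3, which encodes CHOP, had -0.32 (adjusted p = 0.312) and ATF3 had 0.49 (adjusted p = 0.242). For ATF3, Vector replicate 2 was at 11.6 FPKM and the other Vector libraries at 4.31 and 4.08 FPKM, and without Vector replicate 2 its log2 fold change was 1.15 and past the threshold (adjusted p over alternatives 0.000173 to 0.637). EIF2S1, which encodes the PERK substrate eIF2 alpha, rose from 21.4, 12.2 and 16.5 FPKM to 36.5, 31.4 and 28.5 FPKM, a log2 fold change of 0.95 (adjusted p = 0.000755). The tested genes within 5 Mb of EIF2S1 had a median log2 fold change of 0.36. With the local-median offset EIF2S1 had 0.59 (adjusted p = 0.0287) and was still past the threshold.

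Of 21 further folding enzymes 4 rose and 2 fell. Beside this list and the lists that follow, 11.7% of all genes tested were higher and 11.6% were lower. AGR2, a disulfide isomerase needed for mucin production, fell by 1.39 on the log2 scale, from 14.0, 30.4 and 17.7 FPKM to 9.98, 7.12 and 6.46 FPKM (adjusted p = 0.000275). The prolyl isomerase FKBP7 fell by 1.21 on the log2 scale. The membrane-bound thioredoxin proteins TMX1 and TMX4 rose by 1.12 and 0.66, the prolyl isomerase FKBP2 by 0.71 and the BiP nucleotide exchange factor SIL1 by 0.79. In the list named for degradation 1 of 14 rose and 2 fell. The gene that rose was STT3A with 0.49, an oligosaccharyltransferase subunit rather than a degradation factor. Among those that fell was the p97-binding UBXN4 with -0.63. In the translocon and signal peptidase list 2 of 13 rose, SSR3 with 0.57 and SPCS2 with 0.60, and TRAM1 fell with -0.61. Of 10 COPII genes SEC23A rose with 0.86, and SAR1A and SEC31B fell with -0.46 (adjusted p = 0.0286) and -0.75 (adjusted p = 0.0458). These calls were lost in 6 and 10 of 19 alternatives, of which 4 and 5 left out 1 library, with adjusted p-values from 0.00944 to 0.980 and from 0.00244 to 0.506. Of 8 genes of sensor processing 1 rose, the ATF6 protease MBTPS2 with 0.55 (adjusted p = 0.0437), a call lost in 12 of 19 alternatives (adjusted p between 0.0107 and 0.333), 4 of which left out 1 library. Leaving out 1 library ended the call of FKBP2 (without OE-MMP28 replicate 2 or 3), FKBP7 (without Vector replicate 3), STT3A (without Vector replicate 2 or 3 or OE-MMP28 replicate 2) and SSR3 (without Vector replicate 2 or 3 or OE-MMP28 replicate 1 or 2). With the local-median offset, 3 of the 79 genes were higher and 4 were lower, beside 15.4% of all genes called in either direction. Among the calls lost with this offset were those of TMX1, FKBP2, STT3A, SSR3, SPCS2, SEC23A and MBTPS2. Those of FKBP7, UBXN4, TRAM1, SAR1A and SEC31B were lost too, while AGR2, TMX4 and SIL1 kept theirs.

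**Figure D5:**
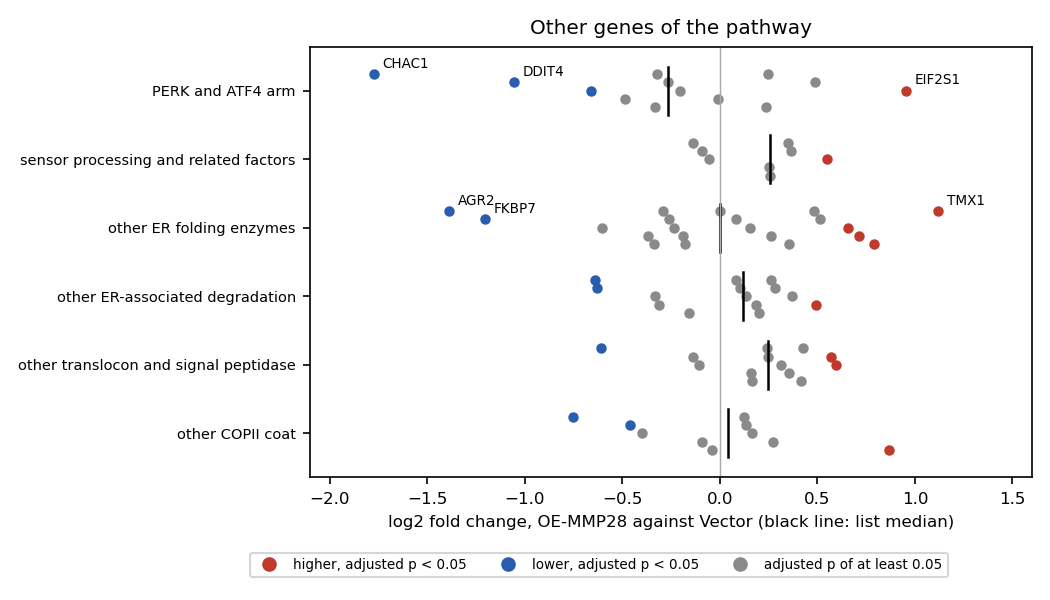
Log2 fold changes, OE-MMP28 against Vector, of the 79 tested other genes of the pathway, 1 point per gene, with the 6 lists on the vertical axis and a black line at each list's median. Red points (10) were higher and blue points (10) lower at an adjusted p under 0.05. The PERK and ATF4 arm has its median at -0.26 with CHAC1, DDIT4 and TRIB3 in blue and EIF2S1 in red.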

How the data were processed

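RNA was sequenced from 3 Vector and 3 OE-MMP28 libraries of AsPC-1 cells, grouped by sample title. The authors deposited 1 table with the raw read count per gene and library, and with FPKM values scaled to gene length and library total. The submitters' processing notes name HISAT2 2.0.5 and featureCounts 1.5.0-p3, without roles. The genome build, strand setting and handling of multiply mapped reads were not given in the sources used here. Gene identifiers and coordinates of all 58735 genes equal those of GENCODE 29 on GRCh38. The table also holds group means, fold changes and p-values of the authors' own comparison, which were not used, and 0 per-sample columns were left unmapped.

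Counts were tested with edgeR 4.0.16 in R 4.3.3 (genes kept by filterByExpr at min.count 10 and min.total.count 15, TMM, glmQLFit and glmQLFTest, group as the only term), with Benjamini-Hochberg adjustment over 15319 genes. The study names limma, and counts need a count model, so limma 3.58.1 served as an alternative, as did DESeq2 1.42.0. FPKM values are shown as levels, and their depth is that of the counts. A count of 3 equals between 0.180 and 0.220 CPM. Replicate libraries of a group differed beyond counting noise (a chi-square of 15.3 or more per degree of freedom), so none was taken for a copy of another, which does not show separate cultures. Same-numbered libraries deviated with correlations of 0.017, 0.008 and -0.088, and differently numbered ones with -0.148 to 0.167. The numbers thus showed no pairing of the samples, but with 3 libraries per group these correlations cannot exclude it. Full statistics were given for ER genes past the threshold and for HSPA5, XBP1, ATF6, ERN1, EIF2AK3, HSP90B1, HERPUD1 and DNAJB9, and of other pathway genes for those past it and ATF4, DDIT3, ATF3 and TRIB3. SELENOS, DNAJB11, PDIA4, SDF2L1, ERO1A and SYVN1 were given with values by choice after these were seen. Members and lists were chosen with earlier results of these data known. The values of 1 other pathway gene are not reported here.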

Additional observations from a re-analysis of the deposited data

How the results depend on the processing

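The 19 alternatives gave 740 values for 39 named genes, of which 600 kept their direction and side of the threshold, 104 fell below it, 12 passed it and 24 changed sign. Leaving out 1 library gave between 1 and 4 ER genes higher, with 2 without Vector replicate 3 and 1 without OE-MMP28 replicate 2 (15.3% and 13.1% of all genes were then called, beside 23.4%), and between 6 and 13 other pathway genes higher. Limma on log2(FPKM + 1) gave 1 higher and 1 lower ER gene (18.2% of all genes), and 0 and 0 without a filter on low values, where 1 and 2 other pathway genes were higher and lower and MMP28 had 0.84 (adjusted p = 0.0903, range 4.08e-05 to 0.0903). That setting tests more genes and calls 2.19% of them. Limma on log2(FPKM + 0.1) gave 3 higher and 2 lower ER genes (18.7% of all genes). The local-median offset gave 0 higher ER genes, and 3 higher and 4 lower other pathway genes (15.4% of all genes). The sign changed where the value was close to 0 or with the local-median offset. HSPA5 ran from -0.069 to 0.066 when 1 library was left out (-0.0049, -0.069 and -0.056 were the values below 0), and was -0.0046 without a count filter, -0.021 at 1 CPM, -0.043 with upper-quartile scaling, -0.013 with DESeq2 and with its size factors, -0.0024 in each limma fit on FPKM, -0.024 without mitochondrial genes, -0.015 with protein-coding genes and -0.032 with the local-median offset. XBP1 ran from -0.14 to 0.12 when 1 library was left out, with 0.12 without Vector replicate 2, 0.013 without OE-MMP28 replicate 1, 0.012 with voom and 0.00054 with limma on log2(FPKM + 0.1). When 1 library was left out, ATF6 ran from -0.052 to 0.16 and HSP90B1 from -0.042 to 0.15, both lowest without OE-MMP28 replicate 1. With the local-median offset HSP90B1 was -0.13, SEL1L -0.038 and STT3A -0.0025. The cause of these changes was not tested.

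With the replicate number as a block, 4 ER genes were higher and 4 were lower (24.1% of all genes), EIF2AK3 was gained (-0.59, adjusted p = 0.0470), HERPUD1 was lost (-0.43, adjusted p = 0.0744), ATF3 passed (0.63, adjusted p = 0.0262) and XBP1 was 0.011. Depth limits ERN2, with 3 to 6 counts in OE-MMP28, and DERL3, with 3 to 5 in Vector.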

Other observations

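The called genes of the pathway were not spread evenly over the chromosomes, which was noticed after their values were seen. Chromosomes 3, 11 and 14 were the ones on which more than 20% of all tested genes were higher. They hold 22 of the 120 tested genes of the pathway, members and others together, with 10 of the 14 that were higher and 1 of the 14 that were lower. On chromosome 14, SEL1L, EIF2S1, TMX1 and SEC23A were higher and ERO1A was not past the threshold. Among all 492 tested genes of chromosome 14, 50.6% were higher, and the median log2 fold change was 0.56. On chromosome 11, HYOU1, STT3A, SPCS2 and FKBP2 were higher and CREB3L1 was lower, beside 24.7% higher among all tested genes of that chromosome. On chromosome 3, SEC61A1 and SSR3 were higher, beside 24.9%. Chromosomes 2, 8 and 10 were the ones with pathway genes on which more than 20% of all tested genes were lower (34.7%, 28.6% and 40.3%). They hold 15 of the 120 genes, of which 0 were higher and 6 were lower (FKBP7, UBXN4, TRAM1, DDIT4, SAR1A and SEC31B), and EIF2AK3 lies on chromosome 2. The other 17 chromosomes hold 83 of the genes, with 4 higher and 7 lower. The part of such regional differences in the calls was not tested beyond the local-median offset.

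Vector replicate 2 was the lowest library of its group for 21 of the 41 tested ER genes and Vector replicate 1 the highest for 24. Vector replicate 2 was also the highest of its group for CREB3L1, SDF2L1 and ATF3.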
